A study of Mus musculus with 60 samples.

Results

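The membrane adenylate cyclases, the enzymes that make cyclic AMP (cAMP) from ATP, are encoded in the mouse by Adcy1 to Adcy9. These 9 genes were taken by symbol from a table of 24508 genes, and all 9 had a row. They were followed in 18 RNA sequencing libraries of hippocampus, 9 from wild-type (WT) mice and 9 from R6/1 mice. R6/1 mice carry a transgene of exon 1 of the human huntingtin gene with an expanded CAG repeat and are used as a model of Huntington's disease. Both groups were 30 weeks old, came from a mixed CBA x C57BL/6 background and received no treatment named in the labels, so that the transgene is the stated difference between them. RNA came from frozen tissue, and the labels call the 9 libraries of a genotype independent biological replicates without saying whether each is 1 mouse. Lamin B1 chromatin immunoprecipitation from the same kind of tissue gave 1 domain list per genotype, from 3 replicates of 5 pooled mice each.

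Each membrane cyclase is switched on by the stimulatory G protein alpha subunit and differs from its relatives in what else it answers to. Adcy1 and Adcy8 are stimulated by calcium-bound calmodulin and are known in hippocampus for their part in synaptic plasticity and memory, and Adcy3, grouped with them by sequence, is the cyclase of olfactory neurons and of neuronal primary cilia. Adcy2, Adcy4 and Adcy7 are stimulated by G protein beta-gamma subunits, Adcy5 and Adcy6 are inhibited by calcium and by inhibitory G alpha subunits, and Adcy9 stands apart in its weak response to forskolin. The cAMP they make acts through protein kinase A (PKA), Epac exchange factors and cyclic nucleotide gated channels, and phosphodiesterases break it down.

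Transcript levels of 4 members were lower in R6/1 (Adcy1, Adcy2, Adcy7 and Adcy9), 1 was higher (Adcy3) and 4 did not pass the test (Adcy4, Adcy5, Adcy6 and Adcy8). Levels are in RPKM, reads per kilobase of gene scaled for depth, and the differences are those of limma on log2(RPKM + 0.5), R6/1 minus WT, with p-values adjusted over the 14446 genes that averaged 0.5 RPKM or more. All 9 members passed that filter. A call is an adjusted p under 0.05. Among all genes tested, 23.5% were called lower in R6/1 and 24.8% higher, and the members' 4 of 9 lower and 1 of 9 higher are to be read against those shares. The median difference over the 9 members was -0.16, and over all genes tested it was 0.00363. With depth scaled by the sum of a library's reads on genes (own-total scaling) in place of the deposited scaling, 3 members were called higher (Adcy3, Adcy5 and Adcy6) and 3 lower (Adcy1, Adcy2 and Adcy9), while the split over all genes moved from 3586 higher and 3394 lower to 5110 higher and 2526 lower.

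**Figure D1:**
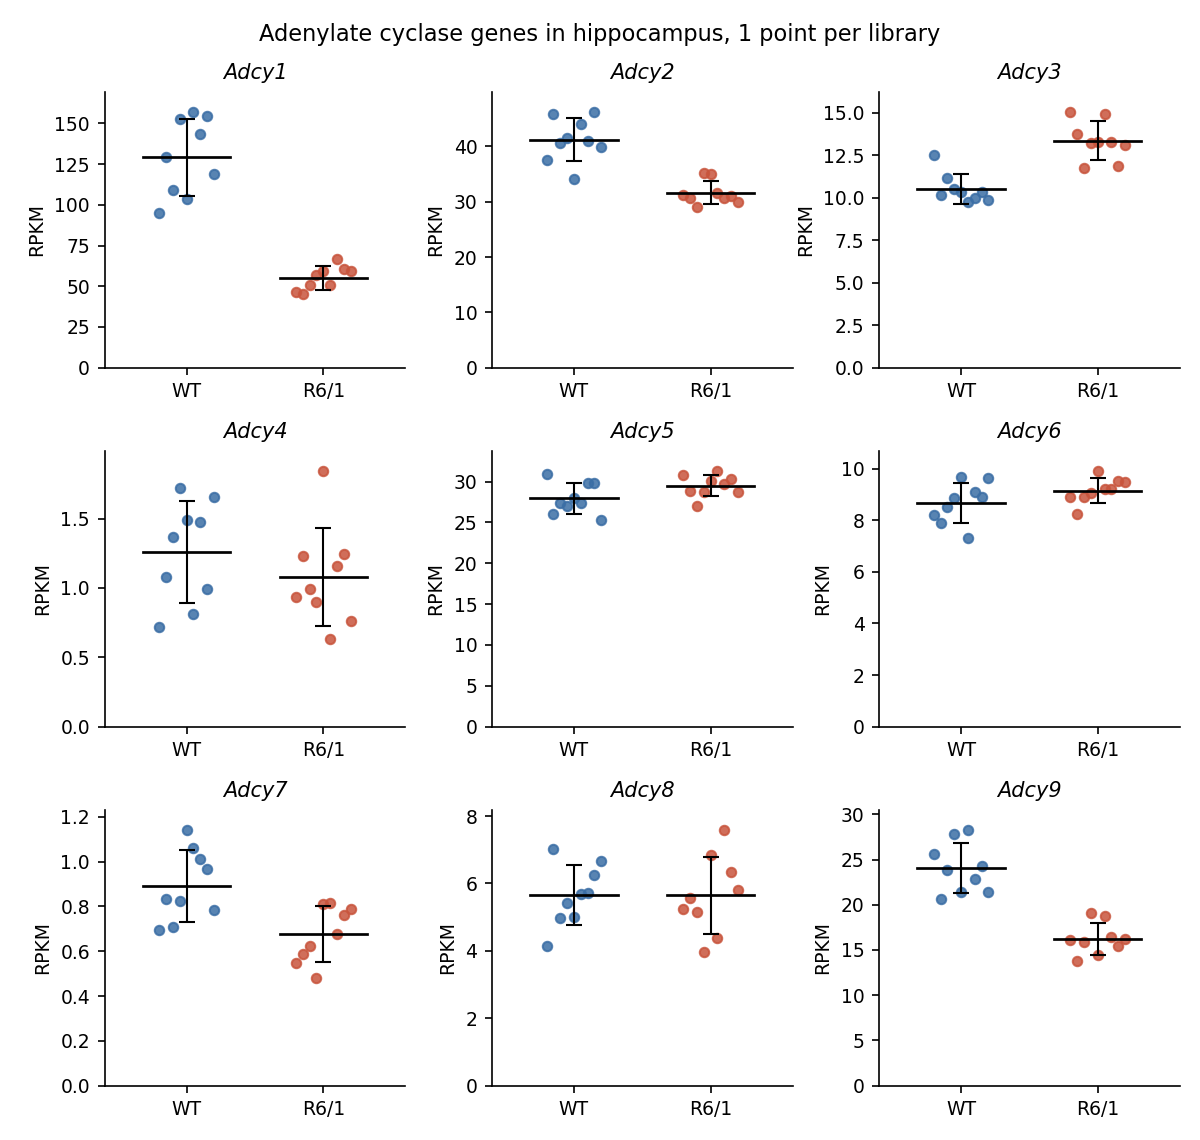
RPKM of the 9 adenylate cyclase genes in every library (points), with the mean (long bar) and SD (whiskers) of 9 WT and 9 R6/1 libraries; each panel has its own axis from 0. The WT and R6/1 points are apart for Adcy1 (lowest WT 94.9, highest R6/1 66.8) and Adcy9 (20.7 and 19.0) and overlap for the other members.

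The libraries held between 12299434 and 16736544 reads on genes. Within a library, a member was read between 31 times (Adcy4 in WT replicate 1) and 30067 times (Adcy1 in WT replicate 4). Hippocampal origin was checked on markers of dentate granule, CA1 and CA3 pyramidal neurons, all 16 of which passed the filter. Summed choroid plexus markers, an epithelium attached to the hippocampus at dissection, ran from 25.3 to 1070 RPKM over the WT libraries and from 38.0 to 1737 over the R6/1 libraries, and 4 libraries of each genotype were at or above 500 RPKM. Summed markers were lower in R6/1 with no overlap for dentate granule neurons (71.3 to 111 RPKM in WT, 42.3 to 53.6 in R6/1), CA1 neurons (149 to 214, 113 to 125), CA3 neurons (121 to 199, 75.8 to 89.7), inhibitory neurons (351 to 428, 212 to 278) and astrocytes (840 to 1109, 569 to 839). Those of oligodendrocytes (850 to 1096, 492 to 877), their precursors (11.7 to 14.3, 11.0 to 15.2), microglia (66.4 to 91.1, 50.6 to 88.7) and endothelium (30.7 to 57.4, 29.7 to 54.4) overlapped.

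The promoters of Adcy1 and Adcy9, the members whose levels did not overlap between genotypes, and of Adcy5, a member that was not called, are shown because a promoter is where the pathway's own transcription factor, CREB, could bind. CREB recognises the cAMP response element TGACGTCA, whose shorter form TGACG is contained in it, and the GC box GGGCGG is a common element of promoters without a TATA box. The 250 bases before the RefSeq transcription start (assembly GRCm38.p6) were searched on both strands. They were then found by exact match, once each, on the files' build mm9 (NCBIM37), at chr11:6963186-6963435 on the plus strand for Adcy1, chr16:4420499-4420748 on the minus strand for Adcy9 and chr16:35154700-35154949 on the plus strand for Adcy5, none overlapping an annotated exon. Each is printed 5′ to 3′ along its gene, with GC boxes and TGACG in capitals on whichever strand they lie.
Adcy1: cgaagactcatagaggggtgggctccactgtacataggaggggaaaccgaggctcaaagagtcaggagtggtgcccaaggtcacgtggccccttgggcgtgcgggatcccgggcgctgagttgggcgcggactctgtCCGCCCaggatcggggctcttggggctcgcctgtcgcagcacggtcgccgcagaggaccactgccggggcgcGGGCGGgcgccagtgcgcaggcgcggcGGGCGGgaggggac
Adcy9: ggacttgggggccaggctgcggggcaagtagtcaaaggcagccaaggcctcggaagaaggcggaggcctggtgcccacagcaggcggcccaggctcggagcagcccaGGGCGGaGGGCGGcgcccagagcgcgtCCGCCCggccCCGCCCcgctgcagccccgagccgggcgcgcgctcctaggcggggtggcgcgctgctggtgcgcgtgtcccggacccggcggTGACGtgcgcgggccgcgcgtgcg
Adcy5: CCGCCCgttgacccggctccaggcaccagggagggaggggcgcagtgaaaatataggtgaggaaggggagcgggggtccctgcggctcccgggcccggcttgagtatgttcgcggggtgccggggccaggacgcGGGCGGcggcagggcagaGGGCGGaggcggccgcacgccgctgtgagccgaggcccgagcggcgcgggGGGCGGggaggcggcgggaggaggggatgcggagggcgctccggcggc
The full element TGACGTCA was in none of the 10 RefSeq promoters of the 7 members found in the table, and 1.55% of all 32851 promoters held it. TGACG was in 2 of the 10, once 24 bases before the Adcy9 start and once in 1 of the 3 Adcy7 promoters, beside 17.8% of all promoters. GC boxes, searched after the sequences had been seen, were in 6 of the 10 beside 32.7% of all. Adcy1 held 3, Adcy9 held 4 and Adcy5 held 4. The G and C content of these windows was 71.2% for Adcy1, 78.8% for Adcy9 and 78% for Adcy5. The other promoters varied: Adcy2, which fell, held 2 GC boxes, the uncalled Adcy4 held 0 at 56% G and C, and 2 of the 3 promoters of Adcy7, which fell, held 0 at 54% and 56%. Promoters of Adcy6 and Adcy8 were not analysed here.

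Adcy1, the calmodulin-stimulated cyclase of plasticity and the most abundant member in both genotypes, had the largest difference of the family. The gene lies at chr11:6963492-7078509 on the plus strand, with 12522 exonic bases. Its WT libraries ran from 94.9 to 157 RPKM with a median of 129, and its R6/1 libraries from 45.3 to 66.8 with a median of 56.7. Every R6/1 library was below every WT library. The mean was 129 ± 23.7 RPKM (SD, n = 9) in WT and 55.1 ± 7.18 (SD, n = 9) in R6/1, a fall of 57.3% of the WT mean. On the log2 scale the difference was -1.21 (SE 0.0997, limma adjusted p 7.29e-09), and 70 of the 14446 genes tested had a value this low or lower. Of all genes tested, 6.38% had R6/1 libraries wholly below the WT libraries, and 2 of the 9 members did, Adcy1 and Adcy9. In the authors' deposited table, Adcy1 has a log2 fold change of -1.18 with an adjusted p of 4.17e-33. In bulk tissue, fewer cells of a type and less RNA per cell cannot be told apart. Within each genotype Adcy1 ran lower where choroid plexus markers ran higher (Pearson r -0.60, Spearman rho -0.60 over 18 genotype-centred libraries, r -0.51 without the 2 libraries farthest from the median, a description with no test). In the 5 WT and 5 R6/1 libraries under 500 RPKM of these markers, a limit set after the data were seen, the Adcy1 difference was -1.30 (limma adjusted p 3.11e-06). The part of choroid plexus in the Adcy1 difference was not tested, nor was that of the falling neuronal markers.

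Adcy8, the other calmodulin-stimulated cyclase, did not pass the test. The gene lies at chr15:64530604-64753858 on the minus strand. WT libraries ran from 4.14 to 7.03 RPKM with a median of 5.69, and R6/1 libraries from 3.95 to 7.57 with a median of 5.56. The groups overlapped almost completely. The difference was -0.01 (95% interval -0.23 to 0.21, limma adjusted p 0.947), so that a change of about the size seen for Adcy2 lies outside the interval. The sign of this small value turned under 9 of 32 alternatives, none of which gave a call.

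Adcy3, the ciliary cyclase, was the member that rose. It lies at chr12:4133103-4213525 on the plus strand. WT libraries ran from 9.75 to 12.5 RPKM with a median of 10.4, and R6/1 libraries from 11.7 to 15.0 with a median of 13.3. Of the R6/1 libraries, 7 were above the highest WT library and the others lay inside the WT range. The mean went from 10.5 ± 0.861 RPKM (SD, n = 9) to 13.4 ± 1.14 (SD, n = 9), a difference of 0.33 on the log2 scale (SE 0.0532, limma adjusted p 3.70e-05). No member had R6/1 libraries wholly above the WT libraries, beside 5.5% of all genes tested. The 3′ part of Adcy3 overlaps Cenpo, a centromere protein gene on the opposite strand. Cenpo was at 0.587 ± 0.14 RPKM (SD, n = 9) in WT and 0.833 ± 0.163 (SD, n = 9) in R6/1 (log2 difference 0.30, limma adjusted p 0.0138). The library kit keeps strand, but whether counting used it is not given in the sources used here, so shared reads between the pair were not tested.

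Among the members stimulated by beta-gamma subunits, Adcy2 was the abundant one. It lies at chr13:68758920-69138419 on the minus strand. WT libraries ran from 34.2 to 46.2 RPKM with a median of 41.1, and R6/1 libraries from 29.1 to 35.3 with a median of 31.1. The groups touched: 7 R6/1 libraries were below the lowest WT library and the remainder lay inside the WT range. The mean fell from 41.2 ± 3.86 RPKM (SD, n = 9) to 31.6 ± 2.12 (SD, n = 9), a log2 difference of -0.37 (SE 0.053, limma adjusted p 8.89e-06).

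Adcy7 and Adcy4, the remaining beta-gamma stimulated members, were near the filter. Adcy7, at chr8:90796302-90853861 on the plus strand, ran from 0.696 to 1.14 RPKM in WT with a median of 0.831 and from 0.481 to 0.817 in R6/1 with a median of 0.678, on 46 to 114 reads a library. The groups overlapped, with 5 R6/1 libraries below the lowest WT library. Its log2 difference was -0.24 (SE 0.0849, limma adjusted p 0.024). That call was lost with own-total scaling (-0.20, limma adjusted p 0.0647) and in the libraries low in choroid plexus (-0.18, limma adjusted p 0.212), and voom on the recovered reads gave a larger difference of -0.42 (limma adjusted p 0.00702). Adcy4, at chr14:56387895-56402879 on the minus strand, ran from 0.718 to 1.72 RPKM in WT with a median of 1.37 and from 0.628 to 1.84 in R6/1 with a median of 0.992. The groups overlapped throughout, and the difference of -0.16 (95% interval -0.45 to 0.13, limma adjusted p 0.369) did not pass.

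The calcium-inhibited pair showed small positive values that did not pass the test. Adcy5, the main cyclase of striatal projection neurons, lies at chr16:35154963-35305823 on the plus strand. Its WT libraries ran from 25.3 to 31.0 RPKM with a median of 27.4 and its R6/1 libraries from 27.0 to 31.3 with a median of 29.7. Ranges overlapped, with WT replicates 2 and 9 below every R6/1 library, and the difference was 0.08 (95% interval -0.01 to 0.16, limma adjusted p 0.116). Adcy6, at chr15:98420425-98438064 on the minus strand, ran from 7.31 to 9.68 RPKM in WT with a median of 8.85 and from 8.25 to 9.89 in R6/1 with a median of 9.19. Here too the ranges overlapped, with a difference of 0.08 (95% interval -0.03 to 0.18, limma adjusted p 0.215). Own-total scaling brought both past the threshold, Adcy5 at 0.15 (limma adjusted p 0.0022) and Adcy6 at 0.15 (limma adjusted p 0.035), in a fit where the median of all genes was 0.07. Adcy5 also passed with quantile normalization (0.10, limma adjusted p 0.0387) and without WT replicate 1 (0.10, limma adjusted p 0.0422).

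Adcy9, the forskolin-insensitive cyclase, was the other member whose groups did not overlap. It lies at chr16:4287529-4420498 on the minus strand, and a pseudogene, Gm6142, lies inside it on the same strand. WT libraries ran from 20.7 to 28.2 RPKM with a median of 23.9, and R6/1 libraries from 13.7 to 19.0 with a median of 16.1. All R6/1 libraries were below all WT libraries. The mean fell from 24.0 ± 2.77 RPKM (SD, n = 9) to 16.2 ± 1.75 (SD, n = 9), by 32.4% of the WT mean, and the log2 difference was -0.55 (SE 0.0686, limma adjusted p 1.80e-06). In the libraries low in choroid plexus it was -0.50 (limma adjusted p 0.000754).

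**Figure D2:**
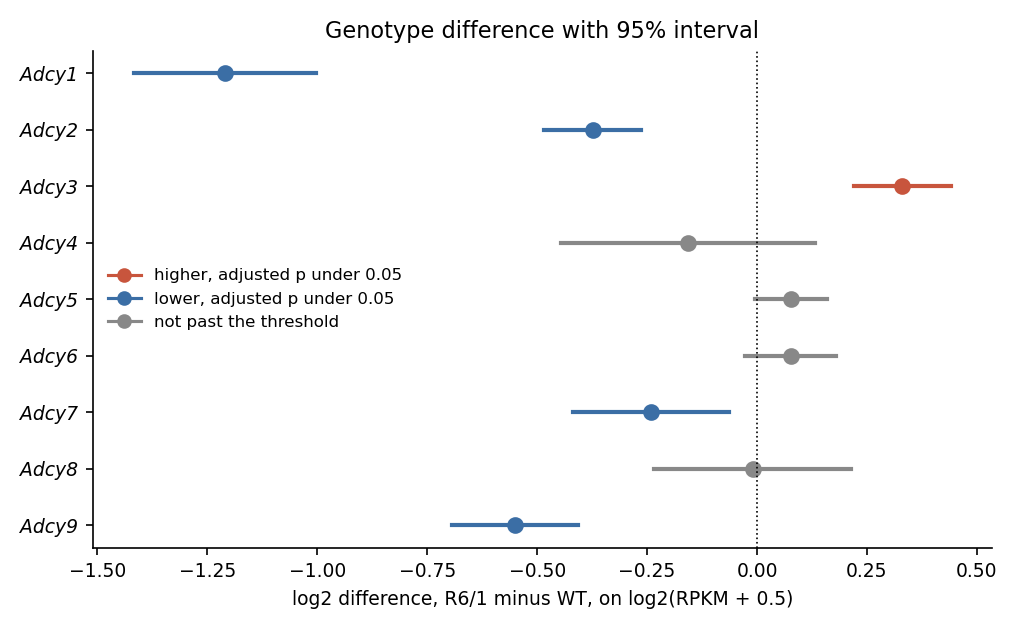
Log2 difference between R6/1 and WT on log2(RPKM + 0.5) for each member, as a point with its 95% interval from limma (9 libraries per genotype). Adcy1 (-1.21), Adcy9 (-0.55), Adcy2 (-0.37) and Adcy7 (-0.24) lie left of 0, Adcy3 (0.33) lies right of it, and the other 4 intervals include 0.

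In the authors' deposited table, the same 5 members have an adjusted p under 0.05, beside 40.4% of the 18395 genes that have an adjusted p there. It gives log2 fold changes of -0.38 for Adcy2 (adjusted p 1.72e-10), 0.34 for Adcy3 (2.29e-08), -0.38 for Adcy7 (0.0049) and -0.55 for Adcy9 (1.36e-13). Its values for the uncalled members are -0.20 for Adcy4, 0.08 for Adcy5, 0.08 for Adcy6 and -0.00275 for Adcy8. The soluble cyclase Adcy10, which answers to bicarbonate and is no member, was at 0.0876 ± 0.0644 RPKM (SD, n = 9) in WT and 0.0549 ± 0.0294 (SD, n = 9) in R6/1, under the filter.

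With the deposited values, the order of the levels was the same in both genotypes, from Adcy1 through Adcy2, Adcy5, Adcy9, Adcy3, Adcy6 and Adcy8 to Adcy4 and Adcy7. In WT, neighbours in that order had separate ranges except Adcy5 with Adcy9 and Adcy4 with Adcy7. In R6/1 they did so except Adcy2 with Adcy5, Adcy9 with Adcy3, and Adcy4 with Adcy7. RPKM divides by a gene length, and the lengths behind the deposited values, set so that the median member has a ratio of 1, differed from the exonic lengths of GENCODE vM1 for some members. Adcy9 was counted over 1.51 times its GENCODE length, Adcy5 over 0.722 times and Adcy3 over 0.757 times. The deposited values were rescaled to GENCODE lengths with the reads left as counted, so these are not the values of a recount. On that scale Adcy9 would stand at 36.2 ± 4.17 RPKM (SD, n = 9) in WT and above Adcy5 at 20.2 ± 1.36 (SD, n = 9). Adcy3 (7.96 ± 0.652 RPKM, SD, n = 9) would stand below Adcy6 (8.68 ± 0.784, SD, n = 9) in WT and above it in R6/1 (10.1 ± 0.862 and 9.16 ± 0.47, SD, n = 9 each). The order of these neighbours therefore changed with the gene length used. With the reads held as counted, gene length enters the log2 differences only through the filter and the added 0.5 RPKM. Both weigh most on low genes: Adcy7 was at -0.35 with 0.1 RPKM added and -0.17 with 1 RPKM added, called in both. Another gene model could also change which reads are counted, and its effect on the differences was not tested.

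Summed over the 9 members, the level was 249 ± 27.6 RPKM (SD, n = 9) in WT and 162 ± 9.45 (SD, n = 9) in R6/1. The sums ran from 215 to 282 in WT and from 148 to 176 in R6/1, without overlap. Adcy1 made up 85.1% of the difference between the means, Adcy2 11.0% and Adcy9 8.96%, and Adcy3, which rose, made up -3.27%. These parts rest on the gene lengths behind the deposited values. With the same reads rescaled to GENCODE lengths, without a recount, mean Adcy9 went from 36.2 RPKM in WT to 24.5 in R6/1 and mean Adcy2 from 41.2 to 31.6. Adcy9 then made up more of the difference than Adcy2, and Adcy1 (126 to 54.0 RPKM) still made up the most. Without Adcy1 the other 8 members summed to 120 ± 4.92 RPKM (SD, n = 9) in WT and 107 ± 4.33 (SD, n = 9) in R6/1. The share of Adcy1 in the sum ran from 44.1% to 55.8% over the WT libraries and from 29.9% to 38.0% over the R6/1 libraries. Mean shares were 51.4% and 33.8% for Adcy1, 16.6% and 19.5% for Adcy2, 11.3% and 18.2% for Adcy5, 9.68% and 10.0% for Adcy9, and 4.28% and 8.25% for Adcy3, in WT and R6/1. Adcy5, which did not pass the test, thus held a larger part of a smaller sum. Shares add to a whole, depend on the gene lengths used and are given as a description with no test.

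**Figure D3:**
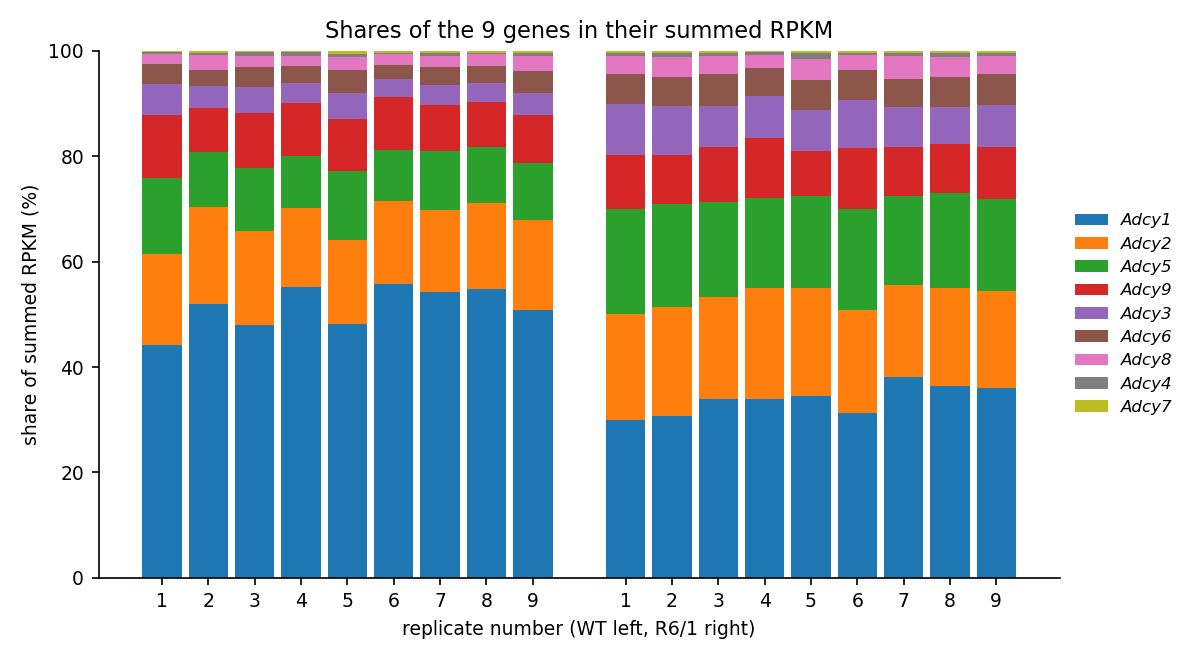
Share of each of the 9 genes in their summed RPKM (percent), 1 bar per library, WT replicates on the left and R6/1 replicates on the right. The Adcy1 segment fills at least 44.1% of every WT bar and at most 38.0% of every R6/1 bar.

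Genes that feed into, carry or end the cAMP signal were examined as 13 lists of 117 genes, of which 108 passed the filter, with 27 called higher and 42 lower in R6/1, beside 24.8% higher and 23.5% lower among all genes tested. Each list count below is to be read against those shares, and nothing particular to a list is drawn from it. Upstream, the stimulatory G alpha genes Gnas (157 and 153 RPKM in WT and R6/1) and Gnal (26.0 and 25.0 RPKM) were not called. Of 5 inhibitory G alpha genes, 4 were higher and 1 lower, with a median of 0.17. Gnai3 had a log2 difference of 0.24 (limma adjusted p 1.74e-05), Gnai2 0.17 (limma adjusted p 0.0034) and Gnaz 0.17 (limma adjusted p 0.00707). The beta and gamma subunits split, 4 higher and 4 lower of 14 tested. Gng4 rose by 0.76 (limma adjusted p 1.30e-05) and Gng3 by 0.52 (limma adjusted p 2.35e-09), whereas Gng7, the gamma subunit paired with Adcy5 in striatum, fell by 0.73 (limma adjusted p 4.03e-09).

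Calm3, a calmodulin gene, went from 761 ± 58.9 RPKM (SD, n = 9) in WT to 569 ± 25.1 (SD, n = 9) in R6/1, with no overlap between genotypes. Its log2 difference was -0.42 (limma adjusted p 2.59e-07), and -0.20 with quantile normalization (limma adjusted p 7.44e-06). Calm2, at 1044 RPKM in both genotypes, was not called. Calmodulin genes have related sequences, and how shared reads were counted is not given in the sources used here.

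More receptor genes were called lower than higher in both receptor lists, beside 23.5% lower and 24.8% higher among all genes. Of 15 Gs-coupled receptor genes tested, 10 were lower and 1 higher, with a median of -0.35. Among them the dopamine receptor Drd1 fell by 0.69 (limma adjusted p 1.95e-05), Drd5 by 0.66 (limma adjusted p 0.00122) and the incretin receptor Glp1r by 0.62 (limma adjusted p 0.00672). In the libraries low in choroid plexus, 6 of these receptors were called lower, 2 were called higher, and Glp1r was not called (-0.40, limma adjusted p 0.0622). That fit, on 5 libraries per genotype, called fewer genes of any kind. It had 2658 of 14446 genes lower and 2652 higher, against 3394 and 3586 with all libraries. Of 21 Gi-coupled receptor genes, 13 were lower and 1 higher, with a median of -0.33. The neuropeptide Y receptor Npy2r fell by 1.40 (limma adjusted p 5.93e-07), the serotonin receptor Htr1b by 0.96 (limma adjusted p 0.000207) and the somatostatin receptor Sstr4 by 0.91 (limma adjusted p 9.78e-08). With voom on the recovered reads, the low genes Glp1r and Htr1b had larger differences of -1.01 (limma adjusted p 0.0101) and -1.47 (limma adjusted p 0.00016). Drd1 is also a marker of striatal projection neurons, a list whose sum ran from 32.4 to 42.4 RPKM in WT and from 25.1 to 29.2 in R6/1.

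Downstream, 4 of 6 PKA subunit genes were higher and none lower, with a median of 0.23, beside 24.8% higher among all genes. The catalytic subunit Prkacb had a difference of 0.38 (limma adjusted p 5.87e-06), and the regulatory subunits Prkar2a and Prkar1b of 0.29 (limma adjusted p 8.30e-07) and 0.26 (limma adjusted p 0.00044). Prkaca, the other catalytic subunit, was at 92.2 RPKM in WT and 90.1 in R6/1 and was not called. Of the PKA inhibitors, Pkig fell by 0.47 (limma adjusted p 2.02e-05), Pkib rose by 0.27 (limma adjusted p 0.00808) and Pkia rose by 0.12 (limma adjusted p 0.0468). The Pkia call was lost under 18 of 32 alternatives, among them leaving out any library except WT replicates 1 and 6 and R6/1 replicates 2, 5 and 6, and the limma adjusted p reached 0.0943. The Pkib call was lost in the libraries low in choroid plexus (0.16, limma adjusted p 0.261). None of these inhibitors was called higher there, beside 2652 of all 14446 genes in that fit.

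Among 10 anchoring proteins tested, which hold PKA near its targets, 4 were higher and 3 lower, beside 24.8% and 23.5% of all genes. Akap5, which anchors PKA at synapses, fell by 0.57 (limma adjusted p 4.28e-07), while Akap9 rose by 0.27 (limma adjusted p 0.00273) and Akap12 by 0.26 (limma adjusted p 0.0111). Akap9 was not called in the libraries low in choroid plexus (0.26, limma adjusted p 0.0515). There 2 of the 10 were called higher, beside 2652 of all 14446 genes in that fit. Of 6 Epac and HCN channel genes, Hcn3 rose by 0.38 (limma adjusted p 0.000294) and Rapgef4, which encodes Epac2, fell by 0.28 (limma adjusted p 0.000322). In the CREB list of 8, 4 were higher and 1 lower, beside the same shares. The coactivators Crebbp and Ep300 rose by 0.45 (limma adjusted p 3.65e-05) and 0.32 (limma adjusted p 3.31e-05), and Crtc1, a coactivator of CREB, fell by 0.32 (limma adjusted p 3.00e-05). Of 15 cAMP phosphodiesterase genes, 6 were lower and 2 higher, again beside 23.5% and 24.8% of all genes. Pde8a fell by 0.57 (limma adjusted p 1.87e-05), Pde2a by 0.37 (limma adjusted p 3.40e-05) and Pde7b by 0.36 (limma adjusted p 0.000611). The higher calls were Pde4b (0.23, limma adjusted p 0.000115) and Pde4d (0.13, limma adjusted p 0.0401). The Pde4d call was lost when any of WT replicates 3, 4, 5, 7 and 9 was left out. The same held for R6/1 replicates 1, 4, 6, 7, 8 and 9. In the libraries low in choroid plexus, 5 per genotype, Pde4d was not called although its difference was larger (0.16, limma adjusted p 0.0577).

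**Figure D4:**
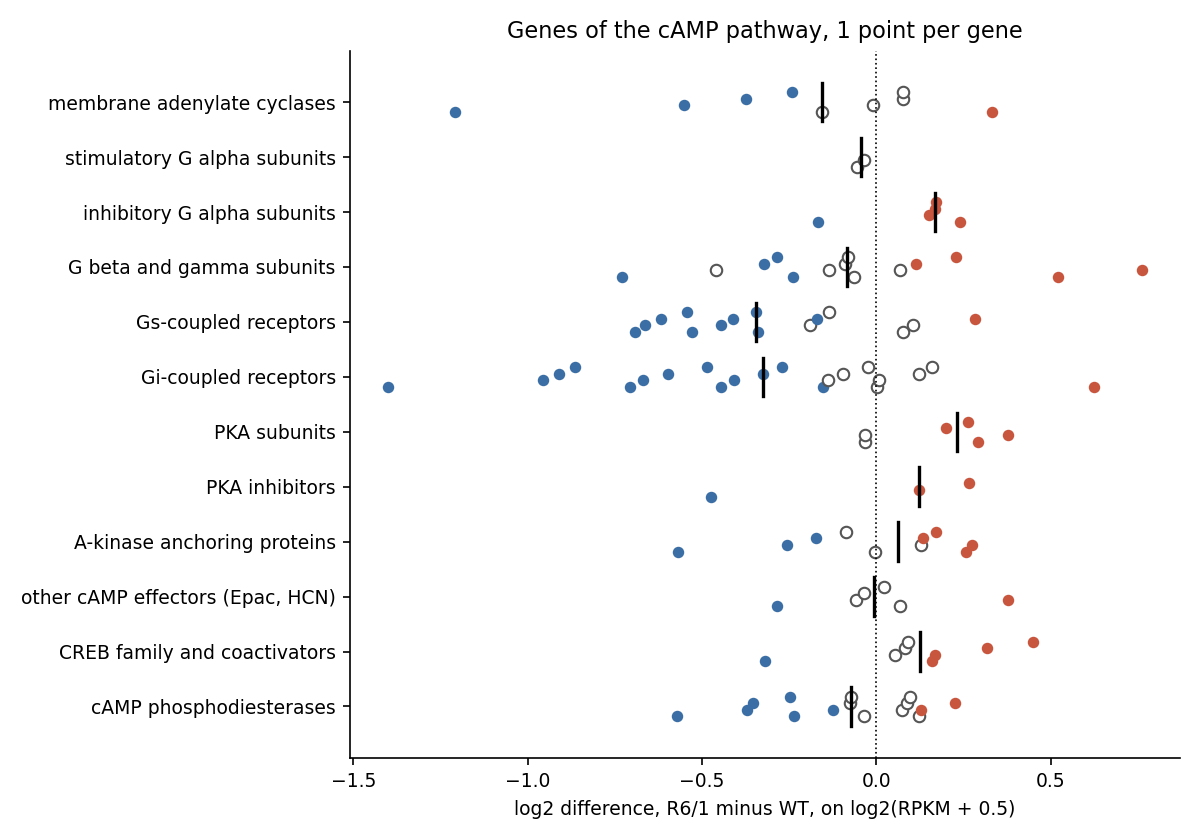
Log2 difference between R6/1 and WT for every tested gene of the cAMP lists other than calmodulin (1 point per gene; filled red, called higher; filled blue, called lower; open, not called), with the median of each list as a bar. The membrane cyclases at the top have a median of -0.16, the Gs-coupled receptors -0.35, the Gi-coupled receptors -0.33 and the PKA subunits 0.23.

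Members varied among libraries largely apart from each other. Over the 36 pairs of members, with each genotype centred on its own mean, Pearson r ran from -0.55 to 0.58 with a median of 0.05 over 18 libraries. Adcy1 with Adcy2 was the most alike pair (r 0.58, rho 0.52), with 0.75 in WT and 0.21 in R6/1. Adcy1 with Adcy3 was the most opposed (r -0.55, rho -0.45), with -0.66 in WT and -0.44 in R6/1. Adcy1 and Adcy8, both calmodulin-stimulated, had r 0.53 (rho 0.57), and Adcy8 and Adcy9 had r -0.54 (rho -0.44). These correlations share libraries, depth and tissue makeup and are descriptions with no test.

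Some members ran with the marker sums of a cell type within genotypes. Of 99 pairs of a member and a marker list, 7 had an r of at least 0.6 in size, a limit chosen after the values were seen. Adcy4 followed the endothelial markers (r 0.80, rho 0.76; 0.80 in WT and 0.81 in R6/1). Adcy9 followed the dentate granule markers (r 0.71, rho 0.73; 0.85 in WT and 0.49 in R6/1) and the CA3 markers (r 0.63, rho 0.72), and ran against the endothelial ones (r -0.70, rho -0.75). Adcy8 ran against the CA3 markers (r -0.74, rho -0.76; -0.85 in WT and -0.90 in R6/1) and the choroid plexus markers (r -0.67, rho -0.74). Adcy2 followed the CA1 markers (r 0.64, rho 0.67), with r 0.37 once the 2 libraries farthest from the median were left out. Dentate granule, CA3 and CA1 sums differ between genotypes without overlap, so their part in the Adcy9 and Adcy2 differences cannot be told apart from genotype.

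**Figure D5:**
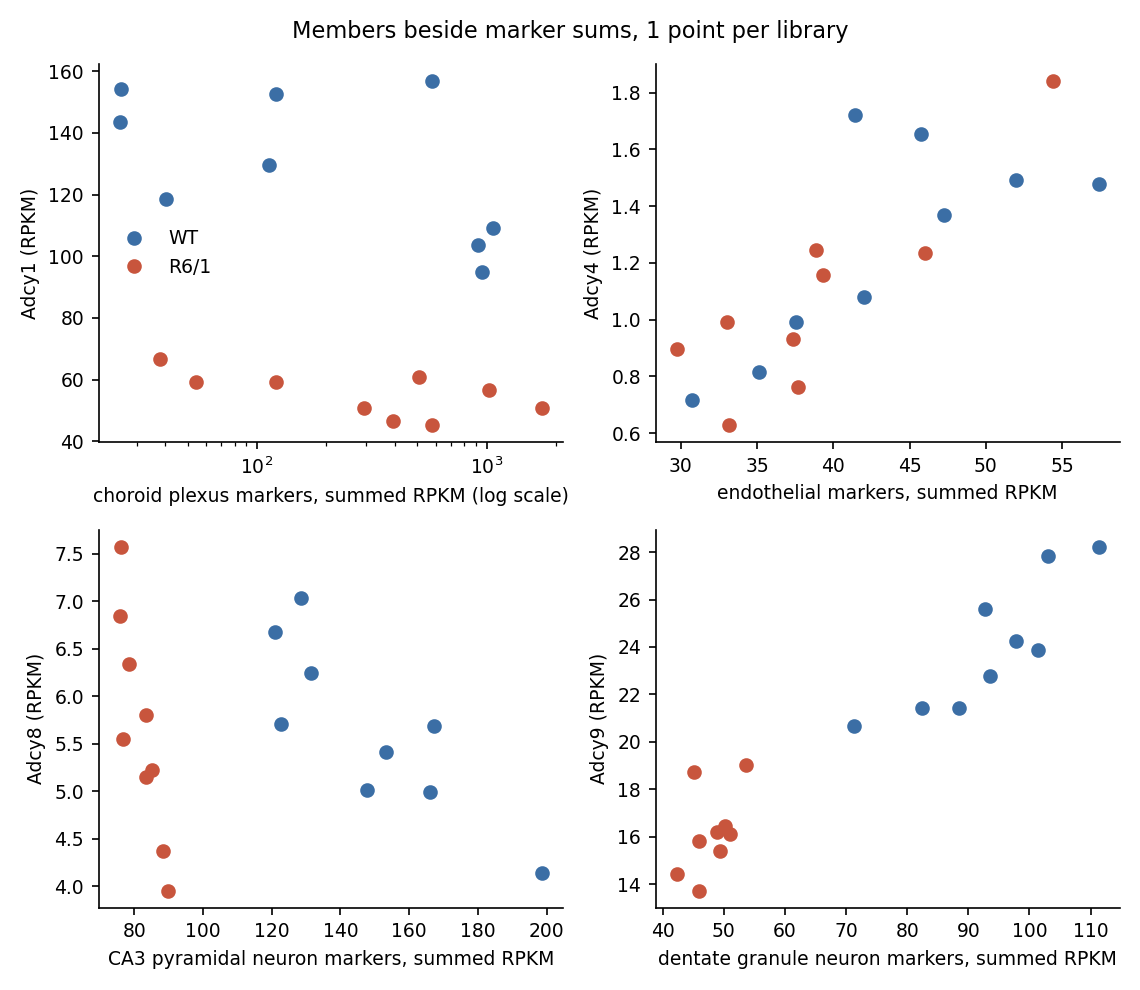
RPKM of 4 members against the summed RPKM of 1 marker list each, 1 point per library (9 WT, 9 R6/1). Adcy4 rises with endothelial markers in both genotypes, Adcy8 falls with CA3 markers within each genotype, and the Adcy9 and dentate granule values of the genotypes do not overlap (marker sums 71.3 to 111 RPKM in WT, 42.3 to 53.6 in R6/1).

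The genes most like each member across libraries, with each genotype centred, were sought among the 13105 genes that averaged 1 RPKM or more. For Adcy1 they were Kalrn (r 0.93), a synaptic exchange factor, Dgki (r 0.91), a diacylglycerol kinase, and Syt7 (r 0.89), a calcium sensor of vesicle release. Kalrn and Syt7 were also lower in R6/1, by 0.86 (limma adjusted p 8.48e-09) and 0.73 (limma adjusted p 2.06e-10), whereas Dgki, at 9.88 RPKM in WT and 9.34 in R6/1, was not called. For Adcy9 they were Slc7a14 (r 0.91), Prkce (r 0.91), a protein kinase C, and Camkk1 (r 0.90), a kinase of calmodulin kinases, all called lower. For Adcy8 they were Plxdc1 (r 0.91), Ttc7 (r 0.87) and Zdhhc22 (r 0.87), none called. For Adcy4 they were Eng (r 0.89), an endothelial co-receptor, Ikbkb (r 0.83) and Plxnb3 (r 0.83). The nearest to Adcy3 were Nisch, Wscd2 and Eno2 (r 0.86 each), to Adcy5 Kif26b (r 0.87), C2cd3 (r 0.84) and Elfn2 (r 0.82), and to Adcy6 Gpbp1l1 (r 0.83), Secisbp2 (r 0.81) and Usp40 (r 0.80). Adcy3 rose, whereas Wscd2 (-0.52, limma adjusted p 1.15e-05) and Eno2 (-0.21, limma adjusted p 0.000283) were lower in R6/1 and Nisch was not called. Adcy4, Adcy5 and Adcy6 were not called. Of their nearest genes, Ikbkb and Elfn2 were called lower, C2cd3 and Gpbp1l1 were called higher, and the others were not called. Lower likenesses were those of Adcy7 with Plekhh2 (r 0.80) and Macf1 (r 0.79), and of Adcy2 with Sec14l1 (r 0.78), Pvalb (r 0.77) and Htr5a (r 0.76). Plekhh2 was called lower like Adcy7, and Macf1 was not called. Sec14l1 and Pvalb were called lower like Adcy2, whereas Htr5a was higher in R6/1 (0.42, limma adjusted p 6.42e-05). Over the pairs named for the members, rho ran from 0.61 to 0.93, and r without the 2 libraries farthest from the median from 0.58 to 0.92. They are the highest of all values compared and are given with no test.

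No member lay in a lamina domain. Lamin B1 domains are long stretches of chromatin held at the nuclear edge, where genes are mostly silent, and the lists held 145 domains in WT and 166 in R6/1. The start of 0 of the 9 members was in a domain of either genotype, and 0 gene bodies overlapped one, beside 20.0% of 22367 protein-coding gene starts in a WT domain and 16.1% in an R6/1 domain. The nearest domain was 1.34 Mb from the start of Adcy3 in WT and 1.31 Mb in R6/1. Adcy1, the member with the largest fall, was 1.99 Mb from a WT domain and 2.06 Mb from an R6/1 domain, and Adcy9 was 41.7 Mb and 42.2 Mb away. With 1 list per genotype these distances have no replicate check.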

How the data were processed

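RNA sequencing libraries from hippocampus (9 WT, 9 R6/1) were analysed, grouped by the genotype in their labels. The submitters' processing notes name TopHat, DESeq2 and mm9 for RNA and Bowtie and mm9 for the immunoprecipitation. The counter, annotation and use of strand are not given in the sources used here. The authors deposited RPKM per gene and library. Within a tolerance of 0.05 of a read, 99.89% to 99.92% of a library's values were multiples of the value of 1 read, from which reads were recovered. The steps differ from those of library totals and show scaling by size factors. Another table deposited by the authors holds their comparison, with a mean normalized count (a signal), log2 fold changes, a test score and p-values, per the file headers. The score per domain in the deposited lists was not used, and the file names give EDD as the caller. How the 3 replicates were combined is not given in the sources used here.

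Genes averaging 0.5 RPKM or more were tested on log2(RPKM + 0.5) with limma 3.58.1 (R 4.3.3, mean-variance trend, Benjamini-Hochberg adjustment), a two-sided test. It was also run on simulated counts with the same dispersion for every gene and no differences in tissue makeup, unlike the real libraries. There it recovered 50% of log2 changes of 0.3 and 96% of those of 0.6, and 5.49% of calls were unchanged genes. Changes as small as those of Adcy5 and Adcy6 were not simulated. Replicates of a genotype are libraries, and the p-values set the genotype difference against the spread between libraries. Named genes are the 9 members, up to 3 called genes per pathway list by size of difference, and the 3 genes most like each member; further list genes were named after their values were seen. Some genes under this rule are not reported here. The members and lists were chosen with earlier results of these data known. Alternatives covered pseudocount, filter, scaling, weights, voom on recovered reads, an exact permutation test, a replicate block and leaving out each library. A choroid plexus covariate, the libraries low in choroid plexus and GENCODE lengths were chosen after seeing the data. Gene positions are from GENCODE vM1 on NCBIM37. ATAC data were not analysed here.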

Additional observations from a re-analysis of the deposited data

Results flagged for a closer look

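Of 18 groups of 9 libraries (9 members in each genotype), 1 held a library that stood apart from the others by Dixon's ratio, and about 0.9 such groups would arise by chance. Adcy3 in WT replicate 1 was at 12.5 RPKM on 753 reads, and the next highest WT library was at 11.1. The gap was 0.495 of the group's range, just past the critical value for 9 libraries. Without this library the Adcy3 difference was 0.36 (limma adjusted p 5.05e-06), against 0.33 with it.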

How the results depend on the processing

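Adcy1, Adcy2, Adcy3 and Adcy9 kept their direction and their call under all 32 alternatives run. Their log2 differences ranged from -1.30 to -1.14 for Adcy1, -0.43 to -0.30 for Adcy2, 0.31 to 0.43 for Adcy3 and -0.58 to -0.48 for Adcy9. The highest adjusted p was 0.000907, that of the exact permutation test for Adcy3. Adcy4 was not called under any of 31. The member count of higher calls was 2 with quantile normalization and 3 with own-total scaling, and it ran from 1 to 2 when a library was left out (2 without WT replicate 1, where Adcy5 passed at 0.10). Adcy5 passed with quantile normalization (0.10) and own-total scaling (0.15), and left-out libraries gave 0.0597 to 0.0954. Adcy6 passed with own-total scaling (0.15). Adcy7 did not pass with own-total scaling (-0.20) or in the libraries low in choroid plexus (-0.18, 5 libraries per genotype), and a minimum mean of 2 RPKM left out Adcy4 and Adcy7. Adcy8 turned positive with quantile normalization (0.0096), own-total scaling (0.057) and the choroid plexus covariate (0.0445), and left-out libraries gave -0.0621 to 0.0451. The cause of these changes was not tested. Of 988 values of the called pathway genes picked by size, 967 kept their direction and call; Pde4d, named outside that rule, is not among them. Own-total scaling gave larger values for Pkia (0.19) and Pde4d (0.20). The cyclic nucleotide channel and Epac list had 2 higher with own-total scaling, the Gs-coupled list 0 higher at a minimum mean of 2 RPKM. Replicate numbers did not pair the libraries: the correlation of same-numbered libraries ran from -0.05 to 0.24, and 2 of 9 matched best. With the replicate block, 3666 genes were higher and 3467 lower, and the Adcy1 difference was -1.21 (limma adjusted p 2.50e-07). Depth limits Adcy4 and Adcy7 most, with 31 to 114 reads a library.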
